A study of Mus musculus with 20 samples.

Results

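The genes described here encode the angiopoietin ligands and their Tie receptors together with a group of genes that mark or guide the tip cells of sprouting vessels. They are Angpt1, Angpt2, Angptl4, Tek, Tie1, Esm1, Apln, Aplnr, Pdgfb and Unc5b. The 10 genes were chosen by symbol and not by their values, out of 19368 genes in the tables of the oxygen-induced retinopathy (OIR) libraries and 19102 genes in the tables of the P30 libraries. All 10 were listed in every table, and all 10 had a mean above 0.1 FPKM (fragments scaled by transcript length and by the depth of the library) in both comparisons and were tested.

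The data are bulk RNA-Seq of 20 whole retinas of mice, with 5 libraries in each of 4 groups. The OIR libraries came from P17 Atf6+/+ (wild-type) and P17 Atf6-/- mice raised in 75% oxygen between P7 and P12, followed by 5 days of room air. The Atf6-/- mice carry a premature stop codon in exon IV of Atf6 in every cell, on a C57BL/6J background. The other 10 libraries came from P30 wild-type mice without the oxygen treatment, and their retinas were taken 24 h after both eyes had received 1 µL of vehicle or of 10 µM Ceapin-A7, an inhibitor that holds ATF6 in the endoplasmic reticulum. The vehicle group is called PBS here, as its labels name it, although the methods describe saline with dimethyl sulfoxide. The methods give more dimethyl sulfoxide in the vehicle than in the Ceapin-A7 solution. At P30 the drug and this difference cannot be told apart. Vessels make up a small part of a whole retina, so in these bulk libraries fewer vascular cells and less RNA per vascular cell cannot be told apart.

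Angiopoietin-1 is secreted mainly by pericytes and activates the receptor TIE2, encoded by Tek, which keeps vessels quiescent. Angiopoietin-2 is made by endothelial cells of growing or regressing vessels and can block that signal, while TIE1 is a partner of TIE2 with no ligand of its own that is generally accepted. Tip cells lead a sprout toward a source of VEGF, and they secrete the proteoglycan endocan (Esm1), the peptide apelin (Apln) and the PDGF-B that draws pericytes along (Pdgfb). In the OIR model, vessels are lost in high oxygen, the retina becomes hypoxic in room air, and new vessels form tufts toward the vitreous at about P17.

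Across the libraries, the sum of FPKM lay between 410599 and 456250, and between 2257 and 2619 listed genes were at 0. The depth relative to the median of each experiment, read from the smallest steps between FPKM values, was 1 in 15 libraries, between 0.923 and 0.957 in 4, and 0.688 in Ceapin-A7 replicate 3. Atf6 itself, at 13.57 to 16.83 FPKM in Atf6-/- OIR retinas and 14.61 to 16.05 FPKM in Atf6+/+ OIR retinas, was not lower in the mutant, so its level does not check the labels of a line made by a stop codon. Markers of tissues next to the retina varied widely between libraries. The summed lens markers ran from 6.25 to 871 FPKM in OIR libraries and from 12.12 to 9945 FPKM at P30, and the summed pigment epithelium markers from 16.84 to 283.9 FPKM over all libraries. Endothelial markers, 14 of 14 of which were detected in every group, summed to 140.9 to 196.3 FPKM in Atf6+/+ OIR, 118 to 178.1 FPKM in Atf6-/- OIR, 63.27 to 77.76 FPKM in PBS and 65.35 to 74.04 FPKM in Ceapin-A7 retinas.

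The promoters of 5 of the 10 genes (Tek, Tie1, Esm1, Apln and Unc5b) could be read from a RefSeq table on the build GRCm38.p6. Those of Esm1, Apln and Unc5b are shown because these 3 are the genes among the 5 that had an unadjusted p of 0.05 or less in the comparison of genotypes. Each line gives the 250 bases before the annotated start, 5′ to 3′ on the gene's strand, at chr13:113209409-113209658 (plus strand) for Esm1, chrX:48034854-48035103 (minus strand) for Apln and chr10:60831582-60831831 (minus strand) for Unc5b. Capitals mark the only match found for the motifs searched.
Esm1: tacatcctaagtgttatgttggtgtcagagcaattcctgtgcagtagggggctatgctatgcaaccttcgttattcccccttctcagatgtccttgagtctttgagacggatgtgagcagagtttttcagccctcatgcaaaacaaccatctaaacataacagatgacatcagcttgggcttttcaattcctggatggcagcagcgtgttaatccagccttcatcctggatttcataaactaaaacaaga
Apln: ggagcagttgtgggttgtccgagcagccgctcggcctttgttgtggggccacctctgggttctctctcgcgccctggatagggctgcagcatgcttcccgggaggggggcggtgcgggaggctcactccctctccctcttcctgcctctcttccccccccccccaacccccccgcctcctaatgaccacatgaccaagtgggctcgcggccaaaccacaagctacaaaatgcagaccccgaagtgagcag
Unc5b: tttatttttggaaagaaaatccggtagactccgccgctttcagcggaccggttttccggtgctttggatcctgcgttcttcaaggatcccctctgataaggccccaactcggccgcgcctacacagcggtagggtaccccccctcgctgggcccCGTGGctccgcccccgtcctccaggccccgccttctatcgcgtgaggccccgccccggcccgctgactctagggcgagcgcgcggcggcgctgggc
The motifs, searched on both strands, were ACGTG, the core of the hypoxia response element, TGACGTG, a site of ATF6 and CREB-like factors that holds ACGTG within it, and CCACG, the part of the ER stress response element that ATF6 contacts, which can overlap ACGTG on the other strand. ACGTG and TGACGTG were in none of the 5 windows, and over all 32851 promoters of the table they were in 16.6% and 1.65%. CCACG was found once, on the reverse strand before Unc5b, and 28.3% of all promoters held it. In base composition the 3 windows differed, with 44.0% G and C before Esm1, 65.2% before Apln and 66.8% before Unc5b.

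Most of the 10 genes stood higher in OIR retinas at P17 than in vehicle-injected retinas at P30. In 7 of the 10 genes (Angpt2, Angptl4, Tie1, Esm1, Apln, Aplnr and Pdgfb) the lowest Atf6+/+ OIR library was above the highest PBS library after rescaling, against 19.9% of all 15631 genes. Angptl4 was not among them with FPKM as deposited, rescaled to the same sum or quantile normalized, which left 6 genes. No gene of the 10 was lower in every Atf6+/+ OIR library. The summed endothelial markers stood apart in the same way, at 140.9 to 196.3 FPKM in Atf6+/+ OIR and 63.27 to 77.76 FPKM in PBS. Among single markers Pecam1 separated the groups and Flt1 did not. The separation is therefore not particular to the 10 genes. Age, oxygen history and injection differ together between these groups, so the differences are given as a description and were not tested.

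**Figure D1:**
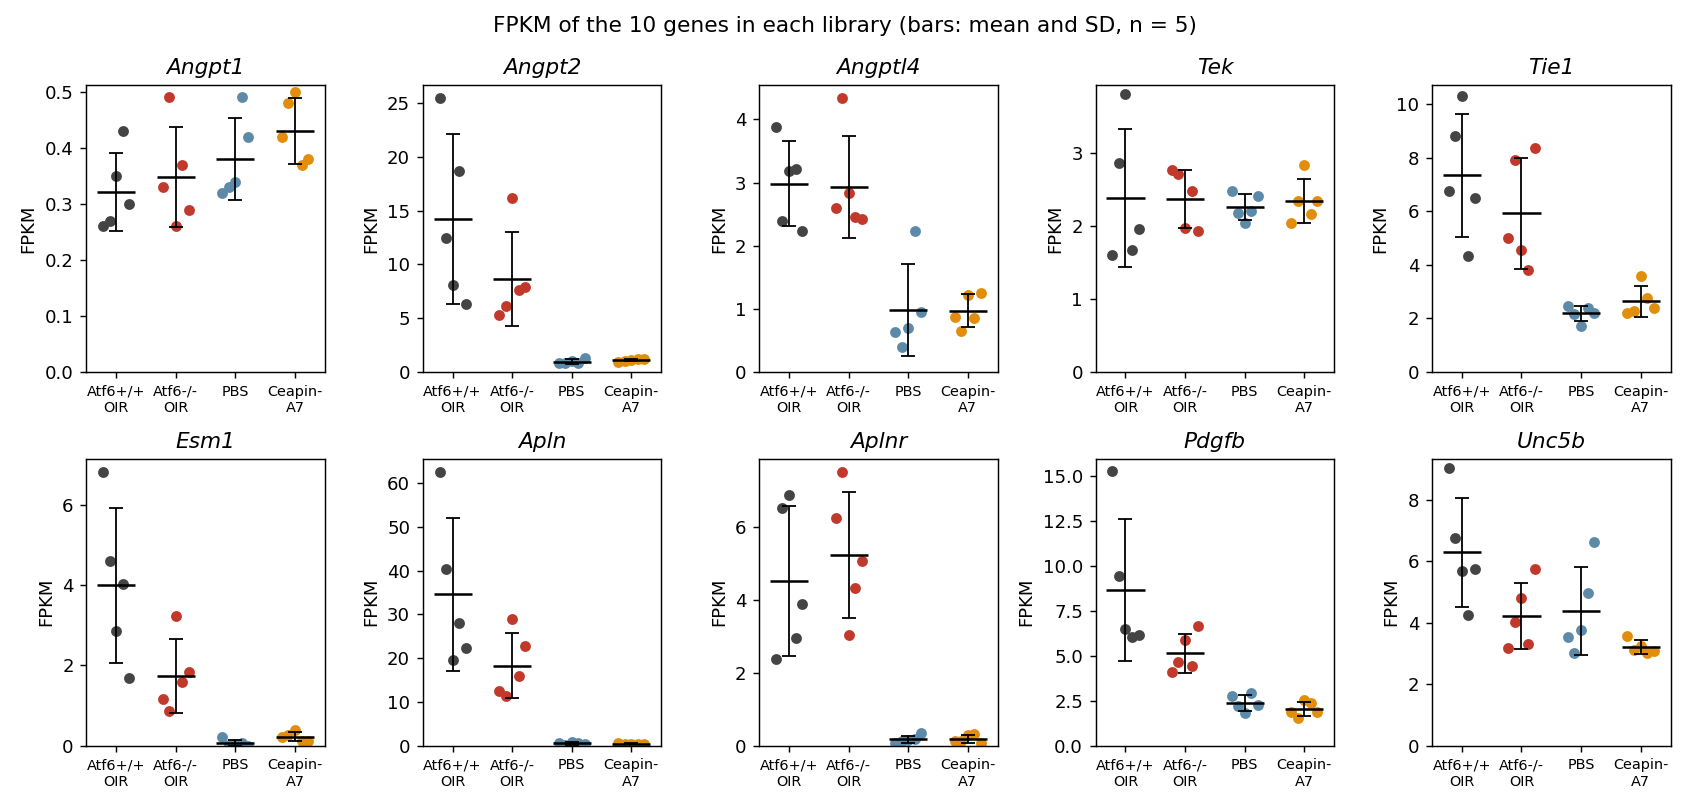
Deposited FPKM of each gene (linear y axis from 0) in the 4 groups on the x axis, with 1 point per library and bars for the mean and SD of 5 libraries. Apln averages 34.6 FPKM in Atf6+/+ OIR and 0.538 FPKM in PBS, while Tek averages 2.388 and 2.266 FPKM, and no gene separates Atf6+/+ from Atf6-/- OIR libraries without overlap.

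Apln, the tip cell ligand, had the highest mean level of the 10 genes in both OIR groups. Atf6+/+ OIR libraries 1 to 5 held 62.47, 40.44, 19.57, 28.13 and 22.37 FPKM, and Atf6-/- OIR libraries held 12.46, 11.43, 29.05, 15.86 and 22.73 FPKM. PBS libraries held 0.65, 0.18, 0.86, 0.54 and 0.46 FPKM, and Ceapin-A7 libraries 0.63, 0.36, 0.52, 0.49 and 0.42 FPKM. The mean in Atf6+/+ OIR was 64.3 times that in PBS, and no OIR library came near a P30 library. Its receptor Aplnr, a G protein-coupled receptor of endothelial cells, averaged 4.53 ± 2.06 FPKM (SD, n = 5) in Atf6+/+ OIR, 5.24 ± 1.72 in Atf6-/- OIR, 0.178 ± 0.0963 in PBS and 0.188 ± 0.109 in Ceapin-A7 retinas, and here too the 2 ages did not overlap.

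Esm1, which encodes a proteoglycan secreted by tip cells, was close to undetected at P30. Its 5 Atf6+/+ OIR libraries held 6.81, 4.61, 2.87, 4.04 and 1.68 FPKM, and its Atf6-/- OIR libraries 1.17, 0.86, 3.24, 1.59 and 1.84 FPKM. In PBS retinas it was listed at 0.21, 0.02, 0.05, 0.07 and 0 FPKM, and in Ceapin-A7 retinas at 0.23, 0.26, 0.39, 0.12 and 0.12 FPKM. Every OIR library was thus above every P30 library, and the 2 genotypes overlapped through Atf6+/+ replicate 5 and Atf6-/- replicate 3. With the PBS mean of 0.07 FPKM under the filter, Esm1 was tested at P30 through its level in the Ceapin-A7 group.

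Angpt2, the endothelial antagonist of TIE2, also stood well apart between the ages. Atf6+/+ OIR libraries held 25.46, 12.5, 8.1, 18.71 and 6.35 FPKM, and Atf6-/- OIR libraries 5.3, 6.17, 16.16, 7.62 and 7.93 FPKM. PBS libraries ranged from 0.81 to 1.34 FPKM and Ceapin-A7 libraries from 0.93 to 1.19 FPKM. The ratio of the Atf6+/+ OIR mean to the PBS mean was 14.6, below those of Apln (64.3) and Aplnr (25.5) and above those of Pdgfb (3.62), Tie1 (3.35), Angptl4 (3.05) and Unc5b (1.44). No ratio is given for Esm1, whose PBS libraries include 1 at 0. Angpt1, the TIE2 agonist, was low everywhere, at 0.26 to 0.5 FPKM over all 20 libraries, and its 4 group means lay between 0.322 and 0.43 FPKM with overlap between every pair of neighbours.

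The Tie receptors differed from each other in this respect. Tek was at 1.61, 2.87, 3.82, 1.68 and 1.96 FPKM in Atf6+/+ OIR and at 2.77, 2.72, 1.98, 2.48 and 1.93 FPKM in Atf6-/- OIR retinas. It ranged from 2.04 to 2.48 FPKM in PBS and from 2.05 to 2.84 FPKM in Ceapin-A7 retinas. The 4 group means of Tek, 2.27 to 2.39 FPKM, therefore could not be put in an order beyond their spread, although the OIR libraries spread more widely. Tie1 averaged 7.33 ± 2.28 FPKM (SD, n = 5) in Atf6+/+ OIR, 5.92 ± 2.07 in Atf6-/- OIR, 2.19 ± 0.284 in PBS and 2.63 ± 0.572 in Ceapin-A7 retinas, and every OIR library was above every P30 library.

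Pdgfb, whose product recruits pericytes to the sprout, was at 15.28, 9.42, 6.49, 6.03 and 6.18 FPKM in Atf6+/+ OIR and at 4.1, 4.67, 5.87, 4.45 and 6.68 FPKM in Atf6-/- OIR retinas. It ranged from 1.82 to 2.91 FPKM in PBS and from 1.55 to 2.52 FPKM in Ceapin-A7 retinas. The OIR libraries were again all above the P30 libraries, and Atf6-/- replicate 5 reached into the range of the wild type. Unc5b, which encodes a receptor for netrins and ROBO4 that restrains tip cells, was at 9.04, 6.77, 5.68, 4.27 and 5.75 FPKM in Atf6+/+ OIR and at 3.19, 4.03, 4.81, 3.3 and 5.76 FPKM in Atf6-/- OIR retinas. At P30 it was at 3.53, 3.02, 3.77, 4.98 and 6.63 FPKM in PBS and at 3.57, 3.13, 3.24, 3.03 and 3.1 FPKM in Ceapin-A7 retinas. Unc5b was the most abundant of the 10 genes at P30, and its neighbouring group means overlapped throughout. Angptl4, a secreted inhibitor of lipoprotein lipase, averaged 2.98 ± 0.674 FPKM (SD, n = 5) in Atf6+/+ OIR, 2.93 ± 0.803 in Atf6-/- OIR, 0.978 ± 0.728 in PBS and 0.97 ± 0.258 in Ceapin-A7 retinas. Its highest PBS library, at 2.23 FPKM, equalled its lowest Atf6+/+ OIR library before rescaling.

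The first comparison asked how the genes differed between Atf6-/- and Atf6+/+ retinas in OIR. Esm1, Apln, Pdgfb and Unc5b were lower in Atf6-/- retinas at an unadjusted p of 0.05 or less, while 0 of the 10 genes reached an adjusted p under 0.05 in limma. Among all 15704 genes tested, 12.7% had an unadjusted p of 0.05 or less, 5.83% with a lower level in Atf6-/- retinas, and 0.0318% (5 genes) an adjusted p under 0.05. The median log2 fold change of the 10 genes was -0.42, beside 0.0028 over all genes. Without rescaling of the deposited FPKM, the calls over all genes at the unadjusted threshold split into 582 higher and 1324 lower in Atf6-/- retinas, in place of 1087 and 915, and the same 4 of the 10 genes were called.

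**Figure D2:**
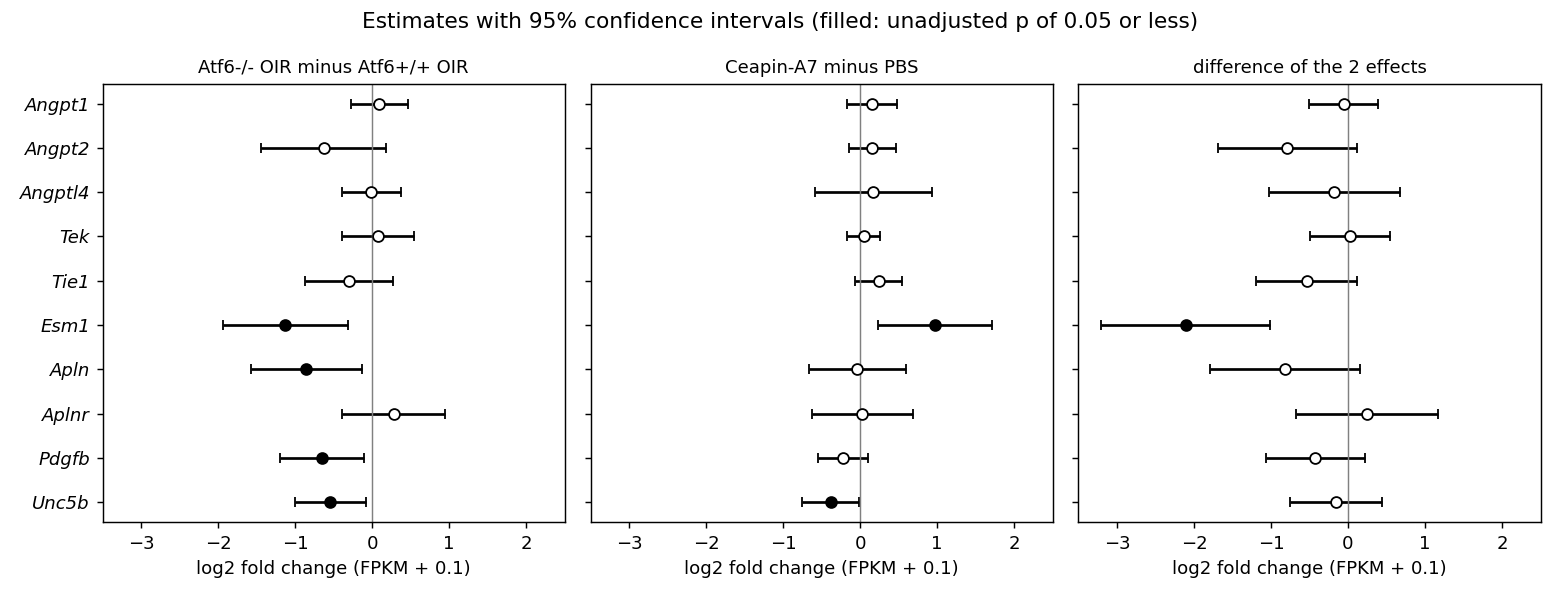
Log2 fold changes of the 10 genes (x axis, on the log2(FPKM + 0.1) scale) with 95% confidence intervals, for Atf6-/- against Atf6+/+ OIR (left), Ceapin-A7 against PBS (middle) and the difference of both effects (right). Filled points have an unadjusted p of 0.05 or less, and Esm1 lies at -1.13 in the left panel and at 0.98 in the middle panel. Esm1 passed the filter at P30 only through the Ceapin-A7 group, so its middle and right points are a description.

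Esm1 was lowest relative to the wild type, at a log2 fold change of -1.13 ± 0.37 (SE), with an unadjusted p of 0.0104 and an adjusted p of 0.361. Its mean was 4.00 ± 1.93 FPKM (SD, n = 5) in Atf6+/+ and 1.74 ± 0.92 FPKM in Atf6-/- retinas. Apln was lower by a log2 fold change of -0.85 ± 0.33 (unadjusted p of 0.0244, adjusted p of 0.365), Pdgfb by -0.65 ± 0.25 (0.0229 and 0.362) and Unc5b by -0.54 ± 0.21 (0.0252 and 0.365). The 2 genotypes overlapped in the libraries of each of these genes, as they did in all 10, and over all genes tested 1.78% did not overlap. Angpt2 pointed the same way, at -0.63 ± 0.37, with an unadjusted p of 0.118, but was at -0.37 (p of 0.30) without Atf6+/+ replicate 1 and at -0.22 (p of 0.581) with array weights, which count variable libraries less.

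The receptors and the TIE2 agonist stood nearer to 0. Tie1 was at -0.30 ± 0.26, Tek at 0.07 ± 0.22 and Aplnr at 0.28 ± 0.31, and their 95% confidence intervals ran from -0.87 to 0.27, from -0.40 to 0.54 and from -0.39 to 0.94. Angpt1 was at 0.09, with an interval from -0.28 to 0.47, and Angptl4 at -0.01, with an interval from -0.39 to 0.37.

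Single libraries changed how many of the 10 genes, and of all genes, were called. The count of 4 became 2 without Atf6+/+ replicate 1 or Atf6-/- replicate 4, and 1 without Atf6+/+ replicate 2 or Atf6-/- replicate 1. Over all genes, the unadjusted calls in these fits were 1302, 1091, 1451 and 1350, in place of 2002. The count became 5, with Angpt2 added, without Atf6-/- replicate 3 or without Atf6+/+ replicate 5, the OIR library with the highest summed lens markers. Over all genes, 1522 and 1724 were called there. The count stayed at 4 without Atf6+/+ replicate 4 or Atf6-/- replicate 5, where 3763 and 4014 of all genes were called. Esm1 alone had an unadjusted p of 0.05 or less in all 10 of these fits, between 0.00179 and 0.0307, with log2 fold changes from -1.39 to -0.90. With array weights and all 10 libraries, however, Esm1 was at -0.82 (unadjusted p of 0.058 in limma) and Apln at -0.70 (0.0569). Tie1 was then called lower, at -0.62 (0.0107), beside 5750 of all 15704 genes called at that threshold in place of 2002. Pdgfb was at -0.42 without Atf6+/+ replicate 1.

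Some markers of vessels had lower levels in the same comparison, at the unadjusted threshold. Of the 14 endothelial markers 4 were lower at the unadjusted threshold and 0 higher, with a median of -0.27, among them Emcn, an endothelial sialomucin (-0.34), Erg, an endothelial transcription factor (-0.45), and Egfl7, a matrix protein secreted by endothelial cells (-0.31). Of the 10 mural markers 4 were lower and 0 higher, with a median of -0.53, led by Myh11 (-0.66), Rgs5 (-0.31) and Acta2 (-0.79), which encode smooth muscle myosin, a pericyte regulator of G proteins and smooth muscle actin. With the mean of the endothelial markers as a covariate, 0 of the 10 genes had an unadjusted p of 0.05 or less in limma, and the share of all 15704 genes that did was 4.76% (748 genes) in place of 12.7%. Esm1 was then at -0.98 ± 0.45 (p of 0.0511), Apln at -0.66 ± 0.39 (0.122), Pdgfb at -0.33 ± 0.25 (0.204) and Unc5b at -0.22 ± 0.19 (0.258).

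Other measures that differed between the genotypes stood beside these values. Of the lens markers tested, 12 of 14 were lower in Atf6-/- retinas at the unadjusted threshold, led by Cryaa, Cryba1 and Crygd, and the summed level was 10.11 to 871 FPKM in Atf6+/+ and 6.25 to 10.08 FPKM in Atf6-/- retinas, where Crygb and Crygc were at 0. Of the 8 pigment epithelium markers 4 were higher, led by Rgr, Lrat and Rpe65, with sums of 16.84 to 106.2 FPKM and 66.07 to 283.9 FPKM. Of the 8 microglia and macrophage markers 1 was lower (Aif1, -0.37), of the 6 rod markers 1 was higher (Pde6b, 0.21), and 0 of the 6 Müller glia and 0 of the 5 erythroid markers passed in limma. The part of these markers in the result was not tested. The log2 fold changes of all genes followed the G and C content of their transcripts, with a Spearman rho of -0.46, and Pdgfb, Unc5b and Tie1 lie above 93.5%, 91.9% and 87.8% of the tested genes in that content. After a correction for it, Pdgfb was at -0.52 (unadjusted p of 0.0333), Unc5b at -0.42 (0.0275), Apln at -0.84 (0.0264) and Esm1 at -1.22 (0.00721).

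The balance of the 2 angiopoietins was taken as the log2 ratio of Angpt2 to Angpt1 within each library, with 0.1 FPKM added to both. Atf6+/+ OIR retinas had log2 ratios of 6.15, 5.09, 4.19, 5.15 and 4.01, and Atf6-/- OIR retinas 3.65, 3.41, 5.50, 4.04 and 4.36. At P30 the ratios ran from 0.63 to 1.47 in PBS and from 0.99 to 1.43 in Ceapin-A7 retinas. The ratio was thus above 3 in every OIR library and below 2 in every P30 library, while the 2 OIR genotypes overlapped. The mean was 0.73 lower in Atf6-/- OIR retinas on the log2 scale (4.19 ± 0.82 against 4.92 ± 0.86, SD), with an exact two-sided permutation p of 0.206 and 0.413 after adjustment over the 2 comparisons. As single libraries were left out, this difference ran from -0.42 without Atf6+/+ replicate 1 to -1.05 without Atf6-/- replicate 3, with exact permutation p from 0.0714 to 0.397. Ceapin-A7 and PBS retinas differed by 0.01 (1.16 ± 0.24 against 1.15 ± 0.32), with an exact permutation p of 0.968, adjusted 0.968. The smallest p that 5 against 5 libraries allow is 0.00794.

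**Figure D3:**
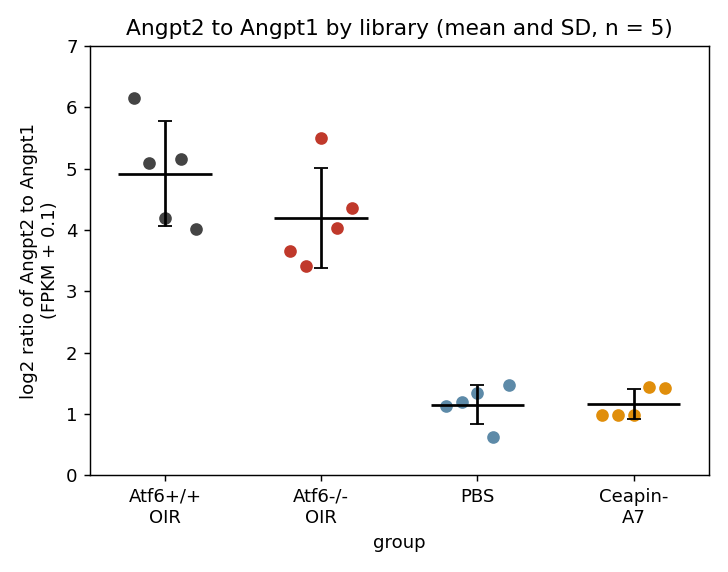
Log2 ratio of Angpt2 to Angpt1 (y axis, FPKM + 0.1) in the 4 groups on the x axis, with 1 point per library and bars for the mean and SD of 5 libraries. The means are 4.92 in Atf6+/+ OIR, 4.19 in Atf6-/- OIR, 1.15 in PBS and 1.16 in Ceapin-A7 retinas.

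Within a genotype, some pairs of the genes varied together between retinas. Each gene was expressed as the deviation from its genotype's mean, and Pearson's r was computed over the 10 OIR libraries for all 45 pairs, as a description. The libraries of one pair share their depth and scaling, and no p is given. Here and below, the values were not corrected for the G and C content of transcripts, which is high in Pdgfb, Unc5b and Tie1. Its part in these r was not tested. Angpt2 and Esm1 had an r of 0.92 (Spearman rho of 0.89), Esm1 and Apln 0.91 (0.88), Apln and Pdgfb 0.88 (0.73), and Pdgfb and Unc5b 0.91 (0.83). Without the 2 libraries farthest from the median of the first gene, these became 0.81, 0.93, 0.83 and 0.82. These pairs were picked from the 45. Angpt2 went less with Pdgfb, at 0.64 (0.59), and with Unc5b, at 0.41 (0.455), which became 0.28 and -0.06 without 2 libraries. Tek and Aplnr went together, at 0.88 (0.90), and against Angpt2, at -0.65 (-0.71) for Tek and -0.75 (-0.69) for Aplnr, which became -0.48 and -0.45 without 2 libraries.

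**Figure D4:**
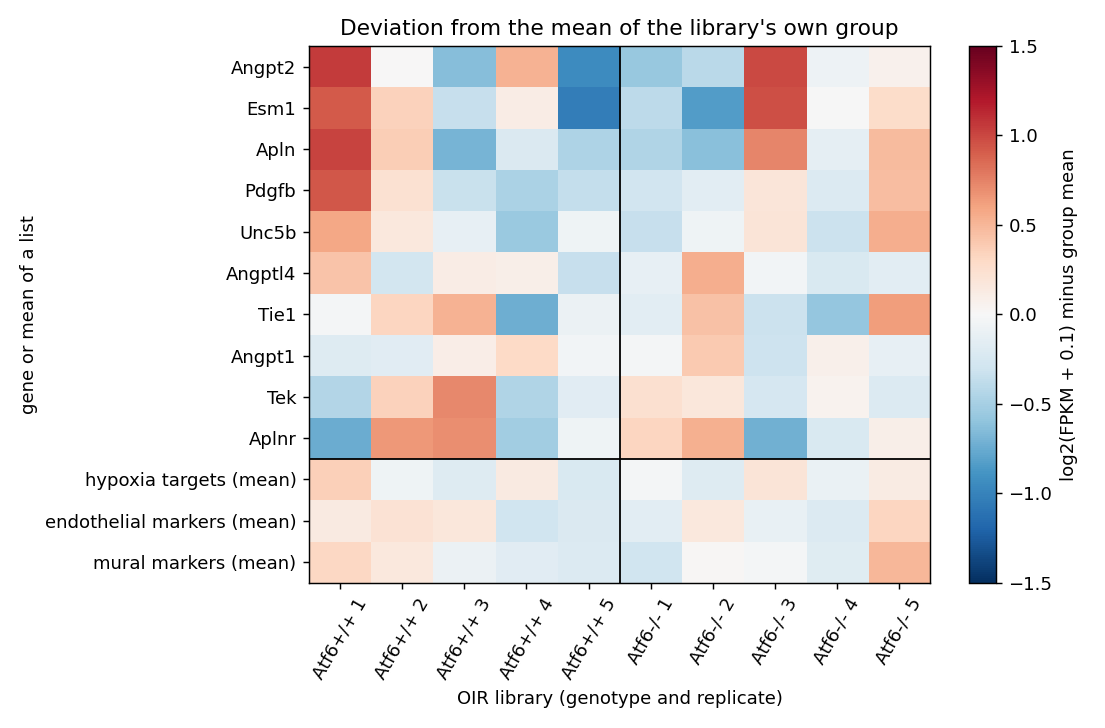
Deviation of each gene's log2(FPKM + 0.1) from the mean of its genotype (color) in the 10 OIR libraries (x axis), with the means of 3 marker lists below the line. Atf6+/+ replicate 1 and Atf6-/- replicate 3 are high in Angpt2, Esm1 and Apln and low in Tek and Aplnr.

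Atf6+/+ replicate 1 held the highest wild-type level of Angpt2, Esm1, Apln, Pdgfb and Unc5b together with the lowest level of Tek and Aplnr. Among Atf6-/- libraries, replicate 3 held the highest Angpt2, Esm1 and Apln and the lowest Aplnr. Over the same 10 libraries, the mean of 18 hypoxia targets had an r of 0.91 with Angpt2, 0.87 with Esm1 and 0.85 with Apln, and of -0.70 with Tek and -0.74 with Aplnr. Without the 2 libraries farthest from the median of each gene, these became 0.83, 0.83, 0.64, -0.66 and -0.48. Pdgfb had an r of 0.71 with the hypoxia targets, which became 0.29. The mean of the endothelial markers instead went with Tie1, at 0.91, and was near 0 for Angpt2, at 0.03. For Unc5b and Pdgfb the r with this mean was 0.72 and 0.59, which became 0.59 and 0.48 without 2 libraries. The mean of the mural markers went with Unc5b, at 0.88, and Pdgfb, at 0.84, which became 0.71 and 0.75.

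Genes with the most similar pattern over the 10 OIR libraries were taken from the 13061 genes with a mean of at least 1 FPKM, by Pearson's r of log2 values. Unlike in the deviations above, the difference between the genotypes was left in. The highest r among so many genes over 10 libraries is high in part by selection, and was not tested. For Angpt2 they were Vegfa (0.97), which encodes the main hypoxic angiogenic factor, Pgf (0.95), which encodes placental growth factor, and H2-Q7 (0.95), a major histocompatibility gene with close copies whose reads may be split. For Esm1 they were Gimap6 (0.96), Fgf11 (0.95) and Itga1 (0.94), an integrin subunit that binds collagen. For Tek they were Abcb1a (0.94), a drug efflux pump of the blood-retina barrier, Ly6c1 (0.92), which marks capillary endothelium in mice, and Tlr3 (0.88).

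Other genes of the same pathways were counted in lists chosen by name. Of 18 further tip cell genes, 5 were lower in Atf6-/- OIR retinas at the unadjusted threshold, 0 were higher, and all 18 had a fold change below 0, with a median of -0.29. Smallest in p were Mmp14, a membrane metalloproteinase (-0.49 ± 0.19), Cd34, a sialomucin of endothelial filopodia (-0.29 ± 0.11), and Adm, which encodes the vasoactive peptide adrenomedullin (-0.83 ± 0.35), and 0 of the 18 passed after adjustment in limma. Without Atf6+/+ replicate 5, the number lower was 6 of 18 in this list, 2 of 15 around the Tie receptors, 1 of 9 partners, 7 of 18 hypoxia targets, 4 of 14 endothelial and 5 of 10 mural markers, 2 of 8 microglia and macrophage markers and 5 of 5 erythroid markers, and 1 of 6 Müller glia markers was higher. In that fit, 823 of all 15718 genes were lower and 901 higher at the unadjusted threshold. Leaving out this library was chosen after seeing the data, and the lists were not counted without any other library. Of 15 tested genes that act with or below the Tie receptors, 1 was lower (Itga5, an integrin subunit, -0.57 ± 0.26) and 0 were higher, with a median of -0.16. Grb14, an adaptor protein, at -0.25, and Itgb1, the partner of Itga5, at -0.18, came next and did not pass.

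Partners of the 10 genes gave 2 lower and 0 higher of 9. Robo4, whose product binds UNC5B on endothelial cells, was at -0.69 ± 0.23, and Pdgfrb, the pericyte receptor for PDGF-B, at -0.48 ± 0.21, while Flrt2, another ligand of UNC5 receptors, was at 0.18 ± 0.09 and did not pass. The median of the partners was 0.11. Among 18 hypoxia targets, 5 were lower and 0 higher with a median of -0.22, led by the oxygen sensor Egln1 (-0.43), the glycolytic regulator Pfkfb3 (-0.42) and the oxygen sensor Egln3 (-0.75). In the angiopoietin-like family, Angptl8 was listed at 0 in every library, and Angptl6, at -0.20, and Angptl2, at -0.44, did not pass.

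**Figure D5:**
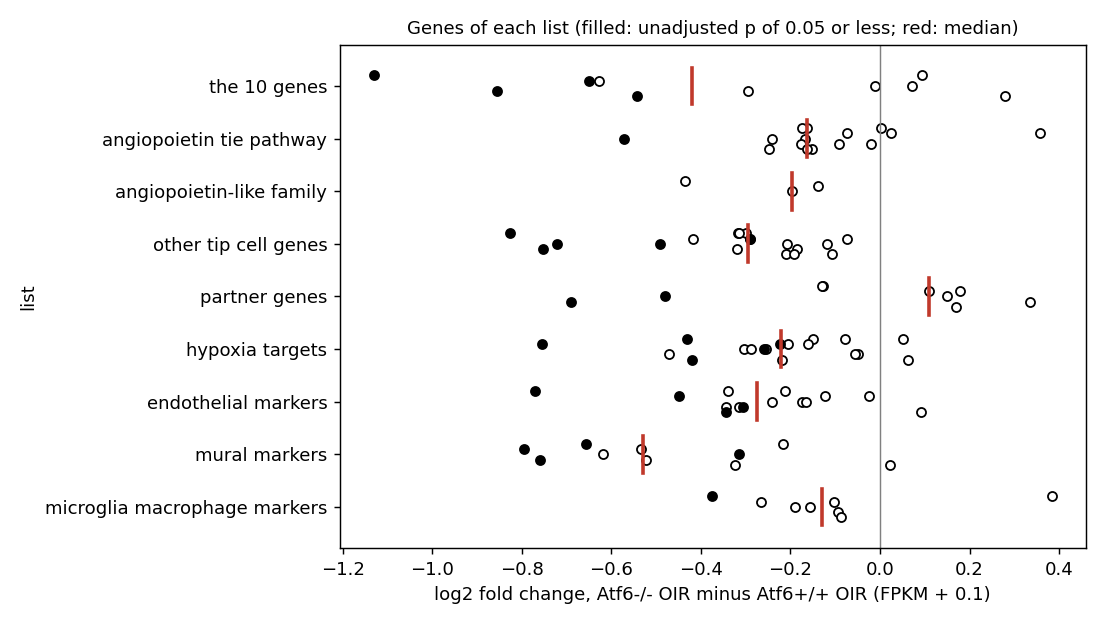
Log2 fold changes in Atf6-/- against Atf6+/+ OIR retinas (x axis) of single genes in each list (y axis), filled at an unadjusted p of 0.05 or less, with the median of each list in red. The medians are -0.42 for the 10 genes, -0.29 for other tip cell genes, -0.53 for mural markers and 0.11 for partner genes.

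The second comparison asked how the genes differed between Ceapin-A7 and PBS retinas at P30, without the oxygen treatment. At an unadjusted p of 0.05 or less, Unc5b was lower in Ceapin-A7 retinas, 1 of the 9 genes other than Esm1, beside 10.4% of all 15408 genes tested. Esm1 was higher at the same threshold, but it passed the filter on low values only through the Ceapin-A7 group, so its call is given as a description and supports nothing. After adjustment in limma, 0 of the 10 genes and 0% of all genes had a p under 0.05. The median log2 fold change of the 9 genes other than Esm1 was 0.05, beside 0.0007 over all genes. Rescaled to the same sum in each library, the calls over all genes at the unadjusted threshold split into 456 higher and 1243 lower, in place of 776 and 820, with Esm1 and Unc5b called. In 0 of the 10 genes did the 2 groups separate without overlap, against 1.47% of all genes.

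Esm1 was at a log2 fold change of 0.98 ± 0.34, with an unadjusted p of 0.0141 and an adjusted p of 0.472. The levels behind it were near the precision of the tables, as the PBS libraries ended at 0.21 FPKM and the Ceapin-A7 libraries began at 0.12 FPKM. With a pseudocount of 1 or of 0.01 in place of 0.1, it was at 0.19 or 2.08. Unc5b was at -0.38 ± 0.17, with an unadjusted p of 0.0432 and an adjusted p of 0.474. Its Ceapin-A7 libraries lay close together, and PBS replicates 4 and 5 held the highest values. The same 2 libraries had the lowest PBS sums of rod markers and of Müller glia markers. The Müller glia sums were 659.1 and 815.5 FPKM there and 1127 to 1610 FPKM in the other PBS libraries. The part of this difference between the PBS libraries was not tested. Unc5b had an unadjusted p above 0.05 without PBS replicate 4, without Ceapin-A7 replicate 2, 3, 4 or 5, and without PBS replicate 5, where it was at -0.23 and Angpt2 was called higher.

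For the others the intervals held 0. Tie1 was at 0.24 (95% confidence interval from -0.06 to 0.54), Pdgfb at -0.22 (-0.55 to 0.10), Angpt2 at 0.16 (-0.14 to 0.46) and Angpt1 at 0.15 (-0.18 to 0.47). Tek had the narrowest interval, from -0.17 to 0.26 around 0.05. Apln, at -0.03, Aplnr, at 0.03, and Angptl4, at 0.17, had intervals that reached past 0.5 in at least one direction.

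The wider lists held few calls at P30. Of 17 tested tip cell genes 1 was lower (Mcam, an adhesion molecule of vessel walls, -0.79 ± 0.29), and Cxcr4, a chemokine receptor (0.41), and Kdr, the main VEGF receptor (-0.24), did not pass. Mcam was at 9.03 and 15.52 FPKM in PBS replicates 4 and 5 and at 4.06 to 5.47 FPKM in the other PBS libraries. Of 15 genes around the Tie receptors 1 was lower (Tnip2, -0.39 ± 0.16), and Dok2, an adaptor that binds TIE2 (-0.35), and Angpt4, a further angiopoietin (0.53), did not pass. Tnip2 was at 28.09 FPKM in PBS replicate 4 and at 12.46 to 16.78 FPKM in the other PBS libraries. None of 8 partners passed, with Flrt3 at -0.14, Lpl at 0.14 and Pdgfra at 0.25 smallest in p. Of 18 hypoxia targets 0 passed either, the smallest in p being Ankrd37 (0.11), Egln1 (-0.13) and Pfkfb3 (0.12). In the angiopoietin-like family, Angptl2, at 0.82, and Angptl6, at 0.13, did not pass.

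Of the 14 endothelial markers 2 were higher with Ceapin-A7, Sox17 (0.31) and Egfl7 (0.24), both with roles in vessel formation, and 0 lower. In this list 8 of 14 fold changes were below 0, with a median of -0.065. Of 10 mural markers 2 were higher, Rgs5 (0.17) and Vtn (0.29), and 1 fold change was below 0, with a median of 0.17. Müller glia markers gave 2 higher of 6 (Glul, 0.85, and Dkk3, 0.31), rod markers 1 of 6 (Sag, 0.39) and microglia and macrophage markers 1 of 8 (P2ry12, 0.75). Glul, Dkk3 and Sag had their lowest PBS levels in replicates 4 and 5. Glul was at 253.99 and 330.2 FPKM there and at 624.1 to 1023.51 FPKM in the other PBS libraries. Among pigment epithelium markers Mlana (2.13) and Pmel (1.85) were higher and Ttr (-0.86) and Lrat (-0.88) lower, while none of the 16 lens and 5 erythroid markers passed. Lens sums ranged from 12.12 to 5612 FPKM in PBS and from 137 to 9945 FPKM in Ceapin-A7 retinas, and the part of these markers in the result was not tested. With the endothelial markers as a covariate, Esm1 (0.99), Unc5b (-0.35) and Tie1 (0.27, unadjusted p of 0.0270) had an unadjusted p of 0.05 or less, beside 11.4% of all genes.

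The third comparison asked whether the effect of the genotype in OIR differed from that of Ceapin-A7 at P30, in 1 fit of all 20 libraries. Esm1 was the only one of the 10 genes with an unadjusted p of 0.05 or less, against 9.20% of all 15628 genes, and 0 of the 10 passed after adjustment in limma, against 0.0320% (5 genes). The 2 effects on Esm1 differed by -2.11 ± 0.53 on the log2 scale, with an unadjusted p of 0.000696 and an adjusted p of 0.345, and by -1.01 or -3.26 with a pseudocount of 1 or of 0.01. It passed the filter at P30 only through the Ceapin-A7 group, and its 0.98 there is part of this difference, so the call is a description as well. Apln (-0.82 ± 0.46), Angpt2 (-0.79 ± 0.43) and Tie1 (-0.54 ± 0.31) had intervals that held 0. Unc5b, called lower in both comparisons at the unadjusted threshold, differed by -0.16 with a 95% confidence interval from -0.76 to 0.44. The count of genes called was 3 without Atf6+/+ replicate 3 or Atf6-/- replicate 3, and 2 without Atf6+/+ replicate 4 or 5, Atf6-/- replicate 5 or PBS replicate 3. Over all genes, 1138 and 1253 were called in the fits with 3, and 2389, 1301, 2614 and 1555 in those with 2, in place of 1437. Age, oxygen, the route of ATF6 loss and the unequal dimethyl sulfoxide at P30 differ together between the 2 experiments and cannot be told apart.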

How the data were processed

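Bulk RNA-Seq of 20 whole mouse retinas was analysed, 5 per group, with groups and replicate numbers from the sample labels. Nothing in the sources states whether 2 libraries could come from 1 animal, so p-values measure the spread between these retinas. Strand-specific mRNA libraries were read from both ends (100 bp) by the authors, who used HISAT2 (v2.0.4) for alignment to GRCm39 and RSEM (v1.2.18) for the deposited FPKM, given per gene to 2 decimals. The versions stand in the submitters' processing notes too, which also name DESeq2 (v1.4.5) for the authors' own test on counts. Counts are not used here, so total depth is unknown and no counting interval is given.

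After scaling of the FPKM by the median of ratios, genes with a mean above 0.1 FPKM were kept, 0.1 was added, and log2 values were compared with limma (version 3.58.1, eBayes with trend, R version 4.3.3) in each experiment of 10 libraries, and in all 20 for the difference of effects. Fold changes on this scale understate those of low genes. The Benjamini-Hochberg adjustment covered every gene tested in a fit. Genes were called at an adjusted p under 0.05, and separately at an unadjusted p of 0.05 or less, the threshold of the study. The code was tested on simulated data. Ratios were compared by an exact permutation test over 252 arrangements. The genes and lists were chosen with earlier results of these data known. Named genes are the 10, up to 3 per list with the smallest unadjusted p in each experiment, the 3 most similar to Angpt2, Esm1 and Tek, and Atf6, and 1 gene of the angiopoietin-like list is not reported here. Coordinates of promoters are on GRCm38.p6, and no other coordinates are given.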

Additional observations from a re-analysis of the deposited data

Results flagged for a closer look

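In 1 of 40 sets of 5 libraries (10 genes in 4 groups), 1 library stood apart from the other 4 by Dixon's ratio. Angptl4 was at 4.34 FPKM in Atf6-/- OIR replicate 2, with the other Atf6-/- OIR libraries at 2.43 to 2.83 FPKM, and the gap made up 0.754 of the range on the log2 scale, above the critical value of 0.71. Chance alone marks about 1 in 20 such sets. Without that library the log2 fold change of Angptl4 between the genotypes was -0.15, with an unadjusted p of 0.342, in place of -0.01.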

How the results depend on the processing

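Of 992 comparisons of a value with its alternative, 871 were taken as kept. For a fold change or a ratio this meant the same direction and the same side of the threshold. A count of genes was also taken as kept after a small change, such as 7 to 6 or 4 to 3. The number of the 10 genes higher in every Atf6+/+ OIR than in every PBS library was 7 without each library in turn and 6 with FPKM as deposited, rescaled to the same sum, or quantile normalized. At an unadjusted p of 0.05 or less, the count of 4 between the genotypes became 0 with the endothelial covariate and 2 with a GC correction and the replicate block together (GC correction, like the counts of the lists without Atf6+/+ replicate 5, was chosen after seeing the data), and ran from 1 to 5 as single libraries were left out. With array weights, which count variable libraries less, 1 gene (Unc5b, adjusted p of 0.0305) passed after adjustment, beside 2772 of 15704 genes in place of 5, and in the test of the difference 744 of 15628 genes in place of 5. At the unadjusted threshold, Tie1, Pdgfb and Unc5b were then called between the genotypes, and Esm1 and Apln were not. For Ceapin-A7 the count of 2 includes Esm1, whose call is a description only. That count became 1 with a filter at a mean of 1 FPKM (which leaves out Esm1), with FPKM as deposited and in limma without trend. It was also 1 in the fit of all 20 libraries and with the replicate block, also with the GC correction. Without single libraries it ran from 1 to 2. For the difference of effects the count of 1 became 2 with a pseudocount of 1 and with array weights, and ran from 1 to 3 without single libraries. Apln was added with the pseudocount of 1 (-0.78, unadjusted p of 0.0467 in limma) and Tie1 with array weights (-0.84, 0.00404). The count of genes with an adjusted p under 0.05 stayed at 0 without each library in all 3 comparisons. Calls over all genes at the unadjusted threshold moved too as single libraries were left out. They ran from 1091 to 4014 between the genotypes, from 953 to 2532 with Ceapin-A7 and from 1007 to 2614 in the difference. Where no construction of the alternative shows it, the cause was not tested.

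The replicate numbers are shared by the groups, but no source ties them to a litter or day. Same-numbered libraries did not deviate together, with r from -0.26 to 0.21 between the genotypes and from -0.22 to 0.31 at P30. With the replicate block 3 of the 10 genes were called between the genotypes (Apln at a p of 0.0513), 1 with Ceapin-A7, and 1 in the difference. The Angpt2 to Angpt1 ratio paired by number differed by -0.73 between the genotypes.

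Some values changed sign, among them those of Tie1 and Aplnr, which were not near 0. Between the genotypes, Angpt1 was at -0.0417 with GC correction, with and without the block. Angptl4 was at 0.0352 with quantile normalization, 0.0430 with array weights, 0.0925 with the covariate and 0.0494 with GC correction, with and without the block. Tek and Aplnr were at -0.0781 and -0.0627 with array weights, in place of 0.07 and 0.28. Tie1 was at 0.21 with the covariate and at -0.62 with array weights, in place of -0.30. In the difference of effects, Angpt1 was at 0.0367 with quantile normalization, Tek at -0.11 with array weights and -0.0140 with GC correction, with and without the block, and Aplnr at -0.0943 with array weights, in place of 0.25. The ratio at P30 was at -0.0067 with a pseudocount of 0.01. Without single libraries, the ratio at P30 ran from -0.12 to 0.0912. So did, between the genotypes, Angpt1 from -0.0041 to 0.17, Angptl4 from -0.15 to 0.0945 and Tek from -0.0431 to 0.25. With Ceapin-A7, Angptl4 ran from -0.0541 to 0.50, Apln from -0.30 to 0.14, Aplnr from -0.11 to 0.21 and Tek from -0.0205 to 0.0882, and in the difference Angpt1 from -0.15 to 0.0239, Angptl4 from -0.51 to 0.0430 and Tek from -0.0848 to 0.21. Depth is unknown, and FPKM of 0.5 or less (Angpt1 throughout, Esm1 and Aplnr at P30, and Apln in some P30 libraries) rest on few reads.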
